A study of Mus musculus with 24 samples.

Results

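Interferon-stimulated genes and nucleic acid sensors were followed by RNA-seq in Neuro2A cells, a mouse neuroblastoma line, through the RNA-targeting CRISPR effectors RfxCas13d, HiFi-RfxCas13d and DiCas7-11 and an antisense oligonucleotide (ASO). The genes were the rows of the deposited count table whose symbol stands in a list of 38 members, and a member was tested when it had at least 0.5 CPM (read counts scaled to a common library total) in at least 3 samples. All 38 were in the table of 39253 genes, and 36 of them were among the 13901 genes tested. There were 8 groups of 3 samples. Wild-type cells were transiently transfected with plasmids for 1 of the effectors together with a crRNA against mouse ataxin-2 (mATXN2) or a non-targeting crRNA (NTG), giving 6 groups collected 48 hr later, and the others were untransfected cells and cells given the ataxin-2 ASO as a positive control. The headers of the count table name the control arms EV where the labels name them NTG, so what the control plasmids carried is in doubt, and the labels' name is used. The same headers give the ataxin-2 crRNA another guide number than the labels do, so which crRNA stands behind the mATXN2 values is in doubt too. Untransfected cells lacked the reagent, the plasmid, the effector and the crRNA together, so these cannot be told apart, and the labels do not say how the ASO was given.

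Cells recognise foreign or misplaced nucleic acid through receptors such as RIG-I, MDA5 (encoded by Ifih1) and cGAS, which signal through the adapters Mavs and Sting1 to the transcription factors Irf3 and Irf7 and so to the interferon genes. Secreted interferon acts through JAK kinases on Stat2 and Irf9, which bind the interferon-stimulated response element and switch on a broad set of antiviral genes, among them the receptors themselves. Double-stranded RNA, plasmid DNA and cleaved RNA are all textbook triggers, and the question put to these data was whether transfection, cleavage by each effector or the ASO moved these genes.

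The promoter element shared by several of these genes is shown first, since the rule used symbols and not sequence. The core of the response element, a pair of GAAA copies with any 2 bases between them (TTTC copies when read on the other strand), was searched for on both strands of the RefSeq promoter windows of GRCm38.p6, which run from 250 bases before to 50 bases after each start. Of the 38 members, 31 had a window, and 13 of these 31 held the core. It was found in 36.1% of the 36 windows of members and in 3.44% of all 32851 windows. Matches that share a GAAA copy were each counted. The stretches below surround the cores that lie before the start of 5 genes, which had the largest fitted rises among members with such a core, and of B2m, a member that rose little, each read along the gene's own strand with the GAAA or TTTC copies in capitals. They lie at chr19:34640760-34640838 on the plus strand for Ifit1, chr8:61928009-61928086 on the plus strand for Ddx60, chr4:156200850-156200921 on the minus strand for Isg15, chr12:26456538-26456597 on the minus strand for Rsad2, chr5:120907526-120907570 on the minus strand for Oas1a and chr2:122147523-122147582 on the plus strand for B2m.
Ifit1: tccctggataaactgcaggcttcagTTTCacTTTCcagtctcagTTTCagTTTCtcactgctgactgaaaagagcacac
Ddx60: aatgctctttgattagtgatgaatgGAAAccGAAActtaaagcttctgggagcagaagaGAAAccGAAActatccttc
Isg15: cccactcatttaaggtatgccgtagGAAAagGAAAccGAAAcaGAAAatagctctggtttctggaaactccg
Rsad2: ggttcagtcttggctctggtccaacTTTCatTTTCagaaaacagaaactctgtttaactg
Oas1a: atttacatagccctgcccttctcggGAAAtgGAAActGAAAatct
B2m: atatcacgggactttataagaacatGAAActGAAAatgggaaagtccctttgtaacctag
Isg15 held 3 overlapping matches, Ifit1, Ddx60 and Oas1a held 2, and Rsad2 and B2m held 1. The core was also found in the windows of Ifit3, Ifit3b, Stat2 and Bst2, and after the start in those of Ifih1, Trim21 and Eif2ak2. Stat2 carried the core and did not pass edgeR's test in any arm with all samples in the fit, and Oasl2 and Irf7 rose without a match in their windows. A match is a description of these letters and not a measured binding site.

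Library totals were between 12665725 and 22504999 estimated counts, with the ASO libraries (21874644 to 22504999) deeper than the untransfected ones (12665725 to 16813658). The 3 NTG libraries of DiCas7-11 differed from each other by 3.33 to 5.58 times counting noise, against 1.68 to 2.55 times in the other groups, so counts that rest on them are also given without each in turn. All 10 neuroblast markers were at 0.5 CPM or more in every library, and their summed level was 1172 to 1252 CPM in all groups. Of 8 macrophage and microglial markers, none reached 0.5 CPM in every library, Adgre1 was at 0 throughout, and the summed level was 0.0639 to 0.379 CPM in untransfected cells, 0.115 to 0.835 CPM in transfected groups and 1.07 to 2.51 CPM under the ASO, where Cd68 reached 2.28 CPM. The part of these markers in the results was not tested. Fibroblast and endothelial lists had 1 of 6 and 1 of 4 markers at 0.5 CPM or more in every library, and they summed to at most 8.48 and 10.7 CPM, both in untransfected cells. Atxn2, the targeted gene, was at 123, 125 and 121 CPM in untransfected cells and 54.1, 52.9 and 48.8 CPM under the ASO. With mATXN2 against NTG its log2 fold change was -0.10 with RfxCas13d (adjusted p = 0.178), -0.23 with HiFi-RfxCas13d (adjusted p = 0.00157) and -0.20 with DiCas7-11 (adjusted p = 0.00557).

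In untransfected cells the list spanned genes expressed by every cell and genes barely read. Per kilobase of transcript, B2m stood highest at 131 CPM per kb, followed by Ifi27 at 27.7, Samhd1 at 27.5 and Adar at 18.2 CPM per kb, while Rsad2 was at 0.215 and Ifit1 at 0.0324 CPM per kb. Ifih1, Ddx60 and Zbp1 had no counts in any untransfected library, where 3 counts over the group would be 0.0669 CPM. Zbp1, a sensor of Z-form nucleic acid, and Ifit3b did not pass the filter and were not tested. Zbp1 had no counts in untransfected cells, 1 count under the ASO and 16, 11 and 7 counts over the 3 NTG samples of RfxCas13d, HiFi-RfxCas13d and DiCas7-11. Kept in the fit with every nonzero gene, Zbp1 was called with RfxCas13d and HiFi-RfxCas13d. Ifit3b had 2 counts in untransfected cells, 6 under the ASO and 10, 7 and 3 in the same NTG arms, and since Ifit3 and Ifit3b are near-identical copies their reads may be split between them. A further 8 members (Ifit1, Ifit3, Irf7, Oasl2, Oas1a, Ifih1, Ddx60 and Xaf1) passed the filter but were under 0.5 CPM in at least 1 untransfected library, so they could only enter through the groups in which they were high, and counts are given also over the 28 members that passed in every untransfected library.

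Transfection came with higher levels of most of the list, whichever effector was used. With the NTG crRNA against untransfected cells, 27 of 36 members were higher and none lower with RfxCas13d, where 5.60% of all genes tested were higher and 5.66% lower. With HiFi-RfxCas13d 27 were higher and none lower, where 10.3% of all genes were higher and 10.6% lower. With DiCas7-11 28 were higher and none lower (11.1% and 10.8% of all genes), and for the mean of the 3 arms 29 were higher and none lower (12.4% and 12.7% of all genes). The median log2 fold change of the members was 1.20, 0.62 and 0.68 in the 3 arms, against -0.0046, -0.0054 and -0.0062 over all genes. Over the 28 members that passed in every untransfected library, 20, 20 and 21 were higher and the medians were 0.70, 0.32 and 0.46. The same 27 members were higher in each of the 3 arms, and 8 (Ifit3, Irf1, Irf3, Stat2, Mavs, Sting1, Psmb9 and Tap1) were called in none by edgeR with all samples and the filter in place. Of these 8, alternative settings called Ifit3, Irf1 and Stat2 in at least 1 arm, as given beside each gene. The 3 comparisons share the untransfected samples, so they do not count as independent. In bulk RNA, more cells expressing a gene and more RNA per expressing cell cannot be told apart. In the values by sample that follow, the mATXN2 samples of an effector overlapped its NTG samples unless another order is given. Such an order is a description, and the share of all genes with separated samples was not counted. For mATXN2 against NTG within an effector, edgeR with all samples called only Rsad2 and Ifit1, both with RfxCas13d.

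The antiviral effectors are given first, among them Ifit1, which had the largest fitted rise for the mean of the 3 arms. Ifit1, whose protein binds foreign RNA by its cap, was at 0.0631, 0.117 and 0.0782 CPM untransfected and 1.7, 1.31 and 1.14 CPM with the ASO. With NTG Ifit1 was at 24.6, 18.2 and 20.6 CPM with RfxCas13d, 18.6, 16.8 and 17.3 with HiFi-RfxCas13d and 16.7, 14.9 and 15.4 with DiCas7-11. With mATXN2 Ifit1 was at 17.2, 16.4 and 13 CPM with RfxCas13d, 18.9, 17.3 and 15.8 with HiFi-RfxCas13d and 17.5, 14.8 and 16.7 with DiCas7-11. For Ifit1 every NTG sample lay above every untransfected sample, and the ASO samples also lay above them. Ifit1 with mATXN2 lay below NTG with RfxCas13d, and overlapped it with HiFi-RfxCas13d and DiCas7-11. The untransfected libraries held 4 counts in all. After scaling for library size, the ratio of counts was 235 for RfxCas13d NTG (95% counting interval 91.6 to 865), 196 for HiFi-RfxCas13d NTG (76.3 to 722) and 175 for DiCas7-11 NTG (68 to 643). These intervals cover counting error only.

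Rsad2, which encodes the antiviral enzyme viperin, was at 0.889, 0.765 and 0.783 CPM untransfected and 3.17, 4.36 and 4.17 CPM with the ASO. With NTG Rsad2 was at 19.5, 13.2 and 13.5 CPM with RfxCas13d, 11.3, 8.92 and 9.79 with HiFi-RfxCas13d and 9.85, 7.15 and 8.33 with DiCas7-11. With mATXN2 Rsad2 was at 10.1, 11.4 and 8.88 CPM with RfxCas13d, 8.65, 9.2 and 7.62 with HiFi-RfxCas13d and 9.64, 10.4 and 9.42 with DiCas7-11. For Rsad2 every NTG sample lay above every untransfected sample, and the ASO samples also lay above them. Rsad2 with mATXN2 lay below NTG with RfxCas13d, and overlapped it with HiFi-RfxCas13d and DiCas7-11. The NTG groups were 18.4, 12 and 10.1 times the untransfected level (adjusted p = 1.24e-14, 6.53e-12 and 4.15e-11). Replicate 1 of RfxCas13d NTG stood above the other samples of its group.

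Isg15, a ubiquitin-like modifier, was at 0.773, 0.968 and 0.645 CPM untransfected and 1.05, 1.36 and 0.93 CPM with the ASO. With NTG Isg15 was at 16.3, 14 and 13.3 CPM with RfxCas13d, 9.41, 11 and 10.8 with HiFi-RfxCas13d and 11.7, 9.13 and 9.09 with DiCas7-11. With mATXN2 Isg15 was at 9.78, 12.2 and 11.6 CPM with RfxCas13d, 9.44, 8.78 and 10.2 with HiFi-RfxCas13d and 10.6, 11.3 and 11.5 with DiCas7-11. For Isg15 every NTG sample lay above every untransfected sample, while the ASO samples overlapped them. Isg15 with mATXN2 lay below NTG with RfxCas13d, and overlapped it with HiFi-RfxCas13d and DiCas7-11. Isg15 was 17.9, 12.9 and 12.3 times its untransfected level in the NTG arms (adjusted p = 2.95e-16, 2.90e-14 and 6.70e-14).

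The OAS family recognises double-stranded RNA. Oas1a, a synthase whose product activates RNase L, was at 0.531, 0.728 and 0.321 CPM untransfected and 0.41, 1.5 and 0.168 CPM with the ASO. With NTG Oas1a was at 15.7, 12.5 and 16.8 CPM with RfxCas13d, 5.68, 4.07 and 3.51 with HiFi-RfxCas13d and 7.12, 6.45 and 3.47 with DiCas7-11. With mATXN2 Oas1a was at 10.6, 16.3 and 12 CPM with RfxCas13d, 3.44, 4.65 and 3.57 with HiFi-RfxCas13d and 5.58, 8.3 and 7.28 with DiCas7-11. For Oas1a every NTG sample lay above every untransfected sample, while the ASO samples overlapped them. For this gene all RfxCas13d samples, with either crRNA, stood above all samples of the other effectors, and reads may be shared with the similar gene Oas1g.

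Oasl2 was at 0.32, 0.299 and 0.239 CPM untransfected and 3.02, 3.89 and 2.51 CPM with the ASO. With NTG Oasl2 was at 17.7, 11.8 and 17.7 CPM with RfxCas13d, 9.49, 6.67 and 7.28 with HiFi-RfxCas13d and 8.6, 9.14 and 7.34 with DiCas7-11. With mATXN2 Oasl2 was at 9.95, 13.4 and 14.3 CPM with RfxCas13d, 6.96, 7.54 and 6.59 with HiFi-RfxCas13d and 8.67, 11.2 and 9.92 with DiCas7-11. For Oasl2 every NTG sample lay above every untransfected sample, and the ASO samples also lay above them. Its relative Oasl1, which restrains the translation of Irf7, was at 1.46, 0.971 and 1.05 CPM untransfected and 4.87, 4.49 and 2.64 CPM with the ASO. With NTG Oasl1 was at 11, 10.1 and 11.1 CPM with RfxCas13d, 8.05, 9.3 and 6.6 with HiFi-RfxCas13d and 7.73, 7.83 and 6.18 with DiCas7-11. With mATXN2 Oasl1 was at 9.8, 10.9 and 8.55 CPM with RfxCas13d, 7.48, 6.63 and 6.1 with HiFi-RfxCas13d and 9.21, 7.8 and 9.14 with DiCas7-11. For Oasl1 every NTG sample lay above every untransfected sample, and the ASO samples also lay above them. For Oasl2 and Oasl1 alike, the ASO samples lay below every transfected sample.

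Ifi27, a small mitochondrial protein, was at 26.4, 23.5 and 23.9 CPM untransfected and 31.4, 46.6 and 30.6 CPM with the ASO. With NTG Ifi27 was at 170.2, 147 and 161 CPM with RfxCas13d, 97.1, 88.1 and 73.7 with HiFi-RfxCas13d and 116, 91.9 and 90.7 with DiCas7-11. With mATXN2 Ifi27 was at 135, 167 and 155 CPM with RfxCas13d, 81.3, 87.9 and 82.4 with HiFi-RfxCas13d and 107, 112 and 101 with DiCas7-11. For Ifi27 every NTG sample lay above every untransfected sample, and the ASO samples also lay above them. In the NTG arms Ifi27 was 6.46, 3.5 and 4.02 times the untransfected level (adjusted p = 2.14e-15, 1.14e-10 and 1.02e-11). Every RfxCas13d sample of Ifi27 was above every sample of the other effectors.

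Bst2, the tetherin that holds budding virions at the cell surface, was at 10.9, 10.6 and 12.4 CPM untransfected and 15, 16 and 14.8 CPM with the ASO. With NTG Bst2 was at 33.1, 31.2 and 34.1 CPM with RfxCas13d, 19.4, 18 and 15.9 with HiFi-RfxCas13d and 22.6, 18.2 and 19.5 with DiCas7-11. With mATXN2 Bst2 was at 25.9, 39 and 31.9 CPM with RfxCas13d, 16.4, 17.8 and 17.1 with HiFi-RfxCas13d and 22.4, 23.4 and 22.1 with DiCas7-11. For Bst2 every NTG sample lay above every untransfected sample, and the ASO samples also lay above them. Xaf1, a binding partner of the apoptosis inhibitor XIAP, was at 0.346, 0.75 and 1.26 CPM untransfected and 2.93, 3.98 and 1.59 CPM with the ASO. With NTG Xaf1 was at 7.45, 4.8 and 8.83 CPM with RfxCas13d, 3.74, 3.08 and 1.79 with HiFi-RfxCas13d and 3.3, 4.7 and 3.6 with DiCas7-11. With mATXN2 Xaf1 was at 4.46, 7.04 and 6.01 CPM with RfxCas13d, 1.91, 3.17 and 2.26 with HiFi-RfxCas13d and 3.06, 4.84 and 3.47 with DiCas7-11. For Xaf1 every NTG sample lay above every untransfected sample, and the ASO samples also lay above them.

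Ddx60, a helicase, had no counts untransfected and was at 0.0871, 0 and 0 CPM with the ASO. With NTG Ddx60 was at 1.62, 0.732 and 1.99 CPM with RfxCas13d, 0.573, 0.334 and 0.795 with HiFi-RfxCas13d and 0.774, 0.469 and 0.759 with DiCas7-11. With mATXN2 Ddx60 was at 1.44, 1.05 and 1.21 CPM with RfxCas13d, 0.938, 0.672 and 0.984 with HiFi-RfxCas13d and 0.811, 1.74 and 1.13 with DiCas7-11. For Ddx60 every NTG sample lay above every untransfected sample, while the ASO samples overlapped them. Ddx60 with mATXN2 lay above NTG with DiCas7-11, and overlapped it with RfxCas13d and HiFi-RfxCas13d. Against 3 counts over the untransfected group, after scaling for library size, it was at least 22-fold higher with RfxCas13d NTG, at least 8.42-fold with HiFi-RfxCas13d NTG and at least 9.95-fold with DiCas7-11 NTG. No fold is given for the ASO, where 2 counts were read.

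Another group of effectors rose by smaller factors in the NTG arms. Eif2ak2, the kinase PKR that halts translation on double-stranded RNA, was at 61.1, 58.4 and 55.5 CPM untransfected and 65.4, 67.8 and 61.8 CPM with the ASO. With NTG Eif2ak2 was at 94.3, 80.7 and 94.7 CPM with RfxCas13d, 75.1, 73.3 and 66 with HiFi-RfxCas13d and 78.9, 80 and 80.1 with DiCas7-11. With mATXN2 Eif2ak2 was at 76.3, 89.5 and 79.9 CPM with RfxCas13d, 69.8, 70 and 67.8 with HiFi-RfxCas13d and 70.1, 73.4 and 73 with DiCas7-11. For Eif2ak2 every NTG sample lay above every untransfected sample, and the ASO samples also lay above them. Eif2ak2 with mATXN2 lay below NTG with DiCas7-11, and overlapped it with RfxCas13d and HiFi-RfxCas13d. Adar, which edits adenosines in double-stranded RNA, was at 69.7, 69.3 and 65.4 CPM untransfected and 82, 88 and 82.2 CPM with the ASO. With NTG Adar was at 86.4, 81.8 and 90.3 CPM with RfxCas13d, 82.3, 80.5 and 77.3 with HiFi-RfxCas13d and 85, 80.1 and 84.4 with DiCas7-11. With mATXN2 Adar was at 88.6, 95.3 and 88.7 CPM with RfxCas13d, 84.7, 87 and 84.7 with HiFi-RfxCas13d and 90.1, 88.2 and 89.5 with DiCas7-11. For Adar every NTG sample lay above every untransfected sample, and the ASO samples also lay above them. Adar with mATXN2 lay above NTG with HiFi-RfxCas13d and DiCas7-11, and overlapped it with RfxCas13d. Across the NTG arms the rises were of 1.22 to 1.54 times for Eif2ak2 and 1.17 to 1.26 times for Adar.

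Ifi35 was at 16, 14.7 and 14.2 CPM untransfected and 25.4, 29 and 26.6 CPM with the ASO. With NTG Ifi35 was at 27.3, 26 and 26.1 CPM with RfxCas13d, 18.6, 19 and 18.1 with HiFi-RfxCas13d and 23, 20.8 and 19.5 with DiCas7-11. With mATXN2 Ifi35 was at 22.7, 26 and 22.9 CPM with RfxCas13d, 17.7, 19.2 and 18.2 with HiFi-RfxCas13d and 23.4, 21.5 and 21.5 with DiCas7-11. For Ifi35 every NTG sample lay above every untransfected sample, and the ASO samples also lay above them. Ifi35 with mATXN2 lay below NTG with RfxCas13d, and overlapped it with HiFi-RfxCas13d and DiCas7-11. Samhd1, which depletes the nucleotides that viruses copy, was at 89.1, 92.2 and 86 CPM untransfected and 107, 104 and 107 CPM with the ASO. With NTG Samhd1 was at 100.3, 99.8 and 105 CPM with RfxCas13d, 99.3, 103 and 94.7 with HiFi-RfxCas13d and 96.5, 96.6 and 97.9 with DiCas7-11. With mATXN2 Samhd1 was at 104, 106 and 102 CPM with RfxCas13d, 98.9, 100.2 and 96.9 with HiFi-RfxCas13d and 99.3, 103 and 95.1 with DiCas7-11. For Samhd1 every NTG sample lay above every untransfected sample, and the ASO samples also lay above them. Samhd1 had the smallest called rises of the class in the NTG arms, of 1.09 to 1.14 times.

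Ifit2 was at 4.79, 4.91 and 5.42 CPM untransfected and 4.69, 4.81 and 4.57 CPM with the ASO. With NTG Ifit2 was at 8.36, 7.77 and 9.41 CPM with RfxCas13d, 6.64, 6.9 and 7.55 with HiFi-RfxCas13d and 7.58, 6.75 and 6.61 with DiCas7-11. With mATXN2 Ifit2 was at 7.25, 6.42 and 6.61 CPM with RfxCas13d, 7.05, 6.65 and 5.11 with HiFi-RfxCas13d and 6.58, 6.93 and 4.66 with DiCas7-11. For Ifit2 every NTG sample lay above every untransfected sample, while the ASO samples overlapped them. Ifit2 with mATXN2 lay below NTG with RfxCas13d, and overlapped it with HiFi-RfxCas13d and DiCas7-11. Ifit3, a partner of Ifit1, was at 0, 0 and 0.317 CPM untransfected and 0.251, 0.294 and 0.203 CPM with the ASO. With NTG Ifit3 was at 0.788, 0.549 and 0.319 CPM with RfxCas13d, 0.507, 0.338 and 0.247 with HiFi-RfxCas13d and 0.349, 0 and 0.88 with DiCas7-11. With mATXN2 Ifit3 was at 0.582, 0.312 and 0.279 CPM with RfxCas13d, 0.329, 0.111 and 0.233 with HiFi-RfxCas13d and 0.51, 0.432 and 0.406 with DiCas7-11. For Ifit3 the NTG samples of RfxCas13d lay above the untransfected ones and the NTG samples of HiFi-RfxCas13d and DiCas7-11 overlapped the untransfected ones, and the ASO samples overlapped them. With all samples edgeR called it for the mean of the 3 arms (adjusted p = 0.0459) and in no single arm, from 4 counts in untransfected cells and 26, 18 and 19 in the NTG arms. That call was lost (edgeR's adjusted p over 0.05) in 7 of the 12 fits that left out 1 library. In RfxCas13d NTG Ifit3 was called by limma-trend under both adjustments and by edgeR when every gene with a nonzero count was kept, and it was called in each of the 3 arms without untransfected replicate 3 and in DiCas7-11 without NTG replicate 2.

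By class, 15 of 16 tested effectors were higher in each arm, where 5.60%, 10.3% and 11.1% of all genes were. Of these 16, 6 had passed the filter only through the groups in which they were high. The other 10 were all higher in each arm, with median log2 fold changes of 1.18, 0.57 and 0.66. The medians of the 6 regulators and ligases, which all passed in every untransfected library, were 1.20, 0.70 and 0.80.

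Among the transcription factors 2 of 5 were higher in each arm, beside 5.60%, 10.3% and 11.1% of all genes. Irf7 had passed the filter only through the groups in which it was high, and of the other 4 factors 1 was higher in each arm. Irf7, which drives the later interferon genes, was at 0.133, 0.244 and 0.507 CPM untransfected and 0.293, 0.965 and 0.501 CPM with the ASO. With NTG Irf7 was at 4.51, 3.72 and 4.58 CPM with RfxCas13d, 1.55, 0.897 and 1.32 with HiFi-RfxCas13d and 1.75, 1.6 and 1.53 with DiCas7-11. With mATXN2 Irf7 was at 2.87, 4.59 and 4.11 CPM with RfxCas13d, 1.06, 0.883 and 0.937 with HiFi-RfxCas13d and 2.18, 2.35 and 1.94 with DiCas7-11. For Irf7 every NTG sample lay above every untransfected sample, while the ASO samples overlapped them. Irf7 with mATXN2 lay above NTG with DiCas7-11, and overlapped it with RfxCas13d and HiFi-RfxCas13d.

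Irf9, the DNA-binding partner of Stat2, was at 4.27, 4.38 and 4.64 CPM untransfected and 6.22, 8.67 and 5.93 CPM with the ASO. With NTG Irf9 was at 19.5, 14.3 and 20 CPM with RfxCas13d, 9.89, 9.75 and 8.64 with HiFi-RfxCas13d and 14.1, 11.1 and 10.5 with DiCas7-11. With mATXN2 Irf9 was at 14.1, 18 and 15.8 CPM with RfxCas13d, 9.07, 8.96 and 8.3 with HiFi-RfxCas13d and 13.1, 14.7 and 14.1 with DiCas7-11. For Irf9 every NTG sample lay above every untransfected sample, and the ASO samples also lay above them. Irf9 was 4.05, 2.13 and 2.68 times its untransfected level (adjusted p = 7.01e-11, 2.02e-05 and 2.23e-07). The other factors did not pass edgeR's test in any arm with all samples in the fit. Irf3, the factor that Mavs and Sting1 activate by phosphorylation, had log2 fold changes of 0.055, 0.13 and -0.050. Stat2 had 0.11, -0.071 and -0.032, and Irf1 had 0.25 (adjusted p = 0.0545), 0.11 and 0.059. Irf1 in RfxCas13d NTG was called under 7 of 10 alternative settings, namely library size only, every nonzero gene, the 1 CPM filter, the replicate block, only the groups compared, limma-trend over 10 comparisons and the coding length correction. Stat2 was called there without untransfected replicate 1.

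Of the sensors and adapters, the RNA sensors rose and the adapters did not pass the test. Of the 5 tested, 2, 2 and 3 were higher in the arms, beside 5.60%, 10.3% and 11.1% of all genes. Over the 4 that passed in every untransfected library, 1, 1 and 2 were higher. Ifih1 (MDA5), which senses long double-stranded RNA, had no counts untransfected and was at 0, 0.0507 and 0 CPM with the ASO. With NTG Ifih1 was at 0.994, 0.824 and 1.1 CPM with RfxCas13d, 0.765, 0.98 and 0.681 with HiFi-RfxCas13d and 0.482, 0.293 and 0.745 with DiCas7-11. With mATXN2 Ifih1 was at 1.18, 0.505 and 0.919 CPM with RfxCas13d, 0.905, 0.619 and 0.421 with HiFi-RfxCas13d and 0.522, 0.444 and 1.26 with DiCas7-11. For Ifih1 every NTG sample lay above every untransfected sample, while the ASO samples overlapped them. After scaling for library size, it was at least 14.7-fold higher than 3 counts over the untransfected group with RfxCas13d NTG, at least 12-fold with HiFi-RfxCas13d NTG and at least 7.7-fold with DiCas7-11 NTG.

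Dhx58 (LGP2), which tunes MDA5 and RIG-I, was at 0.885, 0.685 and 1.02 CPM untransfected and 1.52, 2.86 and 1.98 CPM with the ASO. With NTG Dhx58 was at 3.73, 2.92 and 4.02 CPM with RfxCas13d, 2.28, 2.95 and 3.28 with HiFi-RfxCas13d and 3.61, 3.16 and 3.34 with DiCas7-11. With mATXN2 Dhx58 was at 3.03, 3.14 and 3.4 CPM with RfxCas13d, 2.46, 2.73 and 2.51 with HiFi-RfxCas13d and 3.65, 3.25 and 2.2 with DiCas7-11. For Dhx58 every NTG sample lay above every untransfected sample, and the ASO samples also lay above them. Dhx58 was 4.17, 3.33 and 3.92 times the untransfected level (adjusted p = 2.53e-06, 3.05e-05 and 3.89e-06).

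Cgas, the cytosolic DNA sensor, was at 5.04, 5.39 and 8.19 CPM untransfected and 8.27, 7.63 and 9.26 CPM with the ASO. With NTG Cgas was at 8.13, 6.56 and 7.6 CPM with RfxCas13d, 7.66, 7.06 and 8.4 with HiFi-RfxCas13d and 8.46, 8.36 and 7.65 with DiCas7-11. With mATXN2 Cgas was at 7.22, 7.38 and 7.01 CPM with RfxCas13d, 8.12, 7.59 and 6.4 with HiFi-RfxCas13d and 6.33, 7.4 and 8.17 with DiCas7-11. For Cgas the NTG samples of all effectors overlapped the untransfected ones, and the ASO samples overlapped them. Of the single arms, edgeR with all samples called it in DiCas7-11 NTG alone (log2 fold change 0.42 ± 0.14 SE, adjusted p = 0.0373), and the log2 fold changes of the other arms were 0.28 and 0.33. Cgas was also called for the mean of the 3 arms (log2 fold change 0.34). That call was lost without RfxCas13d NTG replicate 1 or 3, HiFi-RfxCas13d NTG replicate 3 or untransfected replicate 1 or 2. It was also lost with DESeq2 and with only the groups compared. The DiCas7-11 call was lost without DiCas7-11 NTG replicate 1 or 2, and without untransfected replicate 1 or 2, while Cgas was also called in the other arms without untransfected replicate 3.

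Mavs, the adapter of RIG-I and MDA5, was at 18.6, 16.2 and 16.2 CPM untransfected and 21.7, 20.9 and 21.3 CPM with the ASO. With NTG Mavs was at 17.2, 16.8 and 17.1 CPM with RfxCas13d, 18.3, 17.8 and 18.7 with HiFi-RfxCas13d and 16.3, 13.7 and 15.5 with DiCas7-11. With mATXN2 Mavs was at 17.1, 16.8 and 16.8 CPM with RfxCas13d, 15.3, 16.3 and 17.9 with HiFi-RfxCas13d and 17.2, 19.1 and 18 with DiCas7-11. For Mavs the NTG samples of all effectors overlapped the untransfected ones, and the ASO samples lay above them. Mavs with mATXN2 lay above NTG with DiCas7-11, and overlapped it with RfxCas13d and HiFi-RfxCas13d. Sting1, the adapter of cGAS, was at 17.3, 16 and 15.5 CPM untransfected and 13.4, 11.8 and 12.9 CPM with the ASO. With NTG Sting1 was at 15.8, 16.3 and 16.7 CPM with RfxCas13d, 15.2, 14.7 and 14.1 with HiFi-RfxCas13d and 14.5, 15 and 18 with DiCas7-11. With mATXN2 Sting1 was at 17, 15.7 and 16.4 CPM with RfxCas13d, 15.9, 14.3 and 14.5 with HiFi-RfxCas13d and 15, 14.4 and 14.7 with DiCas7-11. For Sting1 the NTG samples of RfxCas13d and DiCas7-11 overlapped the untransfected ones and the NTG samples of HiFi-RfxCas13d lay below the untransfected ones, and the ASO samples lay below them. The log2 fold changes of Mavs in the NTG arms were 0.00127 (95% interval -0.15 to 0.15), 0.10 and -0.17, and those of Sting1 -0.00115 (-0.16 to 0.16), -0.15 and -0.034.

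All 6 regulators and ligases were higher in each arm, beside 5.60%, 10.3% and 11.1% of all genes. Usp18, which strips Isg15 from proteins and dampens interferon receptor signalling, was at 0.961, 0.962 and 0.721 CPM untransfected and 1.04, 1.69 and 0.799 CPM with the ASO. With NTG Usp18 was at 11.2, 7.15 and 12 CPM with RfxCas13d, 2.45, 2.68 and 2.87 with HiFi-RfxCas13d and 5.91, 3.62 and 2.56 with DiCas7-11. With mATXN2 Usp18 was at 5.55, 9.75 and 8.93 CPM with RfxCas13d, 2.59, 2.15 and 1.47 with HiFi-RfxCas13d and 4.21, 4.6 and 3.57 with DiCas7-11. For Usp18 every NTG sample lay above every untransfected sample, while the ASO samples overlapped them. It was 11.3, 2.99 and 4.43 times its untransfected level (adjusted p = 2.69e-09, 0.00293 and 5.82e-05), and the RfxCas13d NTG samples lay above those of the other NTG arms.

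Parp9 and Dtx3l encode partners in a ubiquitin ligase. Parp9 was at 9.48, 9.94 and 8.27 CPM untransfected and 16, 17.5 and 15.8 CPM with the ASO. With NTG Parp9 was at 27.8, 23.7 and 28 CPM with RfxCas13d, 17.1, 15.5 and 15.8 with HiFi-RfxCas13d and 21.9, 19.3 and 17.4 with DiCas7-11. With mATXN2 Parp9 was at 21, 26.7 and 22.5 CPM with RfxCas13d, 16.1, 14.5 and 14.5 with HiFi-RfxCas13d and 17.8, 16.8 and 19.8 with DiCas7-11. For Parp9 every NTG sample lay above every untransfected sample, and the ASO samples also lay above them. Dtx3l was at 15.3, 16.9 and 13.6 CPM untransfected and 22.9, 22.6 and 20.5 CPM with the ASO. With NTG Dtx3l was at 28.6, 25.9 and 31.5 CPM with RfxCas13d, 23.6, 20.6 and 21 with HiFi-RfxCas13d and 24.9, 20.6 and 19.9 with DiCas7-11. With mATXN2 Dtx3l was at 22.5, 28.9 and 29 CPM with RfxCas13d, 18.4, 20.9 and 21.1 with HiFi-RfxCas13d and 22.5, 21.8 and 22.7 with DiCas7-11. For Dtx3l every NTG sample lay above every untransfected sample, and the ASO samples also lay above them. Parp14, another ADP-ribosyltransferase, was at 1.35, 0.901 and 0.957 CPM untransfected and 3.48, 4.12 and 3.54 CPM with the ASO. With NTG Parp14 was at 5.42, 4.78 and 5.23 CPM with RfxCas13d, 2.86, 2.66 and 2.0 with HiFi-RfxCas13d and 3.3, 3.07 and 3.51 with DiCas7-11. With mATXN2 Parp14 was at 3.33, 5.4 and 4.12 CPM with RfxCas13d, 2.46, 3.43 and 2.23 with HiFi-RfxCas13d and 2.48, 3.42 and 3.22 with DiCas7-11. For Parp14 every NTG sample lay above every untransfected sample, and the ASO samples also lay above them.

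Trim25, a ligase that acts on RIG-I signalling, was at 95.2, 96.4 and 95.2 CPM untransfected and 107, 112 and 106 CPM with the ASO. With NTG Trim25 was at 139, 131 and 140.0 CPM with RfxCas13d, 116, 113 and 114 with HiFi-RfxCas13d and 118, 106 and 115 with DiCas7-11. With mATXN2 Trim25 was at 121, 135 and 127 CPM with RfxCas13d, 121, 111 and 112 with HiFi-RfxCas13d and 119, 122 and 123 with DiCas7-11. For Trim25 every NTG sample lay above every untransfected sample, and the ASO samples also lay above them. Trim25 with mATXN2 lay above NTG with DiCas7-11, and overlapped it with RfxCas13d and HiFi-RfxCas13d. Trim21, a cytosolic antibody receptor, was at 12, 8.65 and 8.01 CPM untransfected and 17.8, 16.7 and 15.2 CPM with the ASO. With NTG Trim21 was at 18, 16 and 15.4 CPM with RfxCas13d, 15.5, 14.1 and 14 with HiFi-RfxCas13d and 14.7, 13.2 and 14.1 with DiCas7-11. With mATXN2 Trim21 was at 13.1, 14.8 and 14 CPM with RfxCas13d, 12.7, 13.1 and 11.4 with HiFi-RfxCas13d and 12.4, 13.9 and 13.8 with DiCas7-11. For Trim21 every NTG sample lay above every untransfected sample, and the ASO samples also lay above them. Trim21 with mATXN2 lay below NTG with RfxCas13d and HiFi-RfxCas13d, and overlapped it with DiCas7-11. The ASO and RfxCas13d NTG samples of Trim21 overlapped.

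Of the 4 antigen presentation genes, 2 were higher in each arm, beside 5.60%, 10.3% and 11.1% of all genes. Psmb8, a subunit of the immunoproteasome, was at 18.8, 18 and 16.9 CPM untransfected and 26.9, 26.9 and 26.2 CPM with the ASO. With NTG Psmb8 was at 28, 26.9 and 29 CPM with RfxCas13d, 22.4, 21.6 and 22 with HiFi-RfxCas13d and 23.2, 22 and 21.5 with DiCas7-11. With mATXN2 Psmb8 was at 26.5, 28 and 26.7 CPM with RfxCas13d, 20.9, 22.4 and 21.2 with HiFi-RfxCas13d and 24.1, 23 and 23.8 with DiCas7-11. For Psmb8 every NTG sample lay above every untransfected sample, and the ASO samples also lay above them.

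B2m, the light chain of MHC class I, was at 109, 110.2 and 119 CPM untransfected and 113, 119.7 and 113 CPM with the ASO. With NTG B2m was at 159, 161 and 159 CPM with RfxCas13d, 134, 127 and 126 with HiFi-RfxCas13d and 123, 131 and 115 with DiCas7-11. With mATXN2 B2m was at 139, 158 and 155 CPM with RfxCas13d, 119.9, 122 and 122 with HiFi-RfxCas13d and 116, 119 and 124 with DiCas7-11. For B2m the NTG samples of RfxCas13d and HiFi-RfxCas13d lay above the untransfected ones and the NTG samples of DiCas7-11 overlapped the untransfected ones, and the ASO samples overlapped them. B2m with mATXN2 lay below NTG with RfxCas13d and HiFi-RfxCas13d, and overlapped it with DiCas7-11. B2m was 1.42, 1.15 and 1.09 times the untransfected level, its DiCas7-11 NTG samples overlapped the untransfected ones, and that arm's call (adjusted p = 0.0389) was lost without DiCas7-11 NTG replicate 1 or 2 and without untransfected replicate 1 or 2. Psmb9, the subunit that pairs with Psmb8, had log2 fold changes of 0.020, -0.056 and 0.00866, and the peptide transporter Tap1 had 0.25, -0.070 and -0.042, none past the test.

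**Figure D1:**
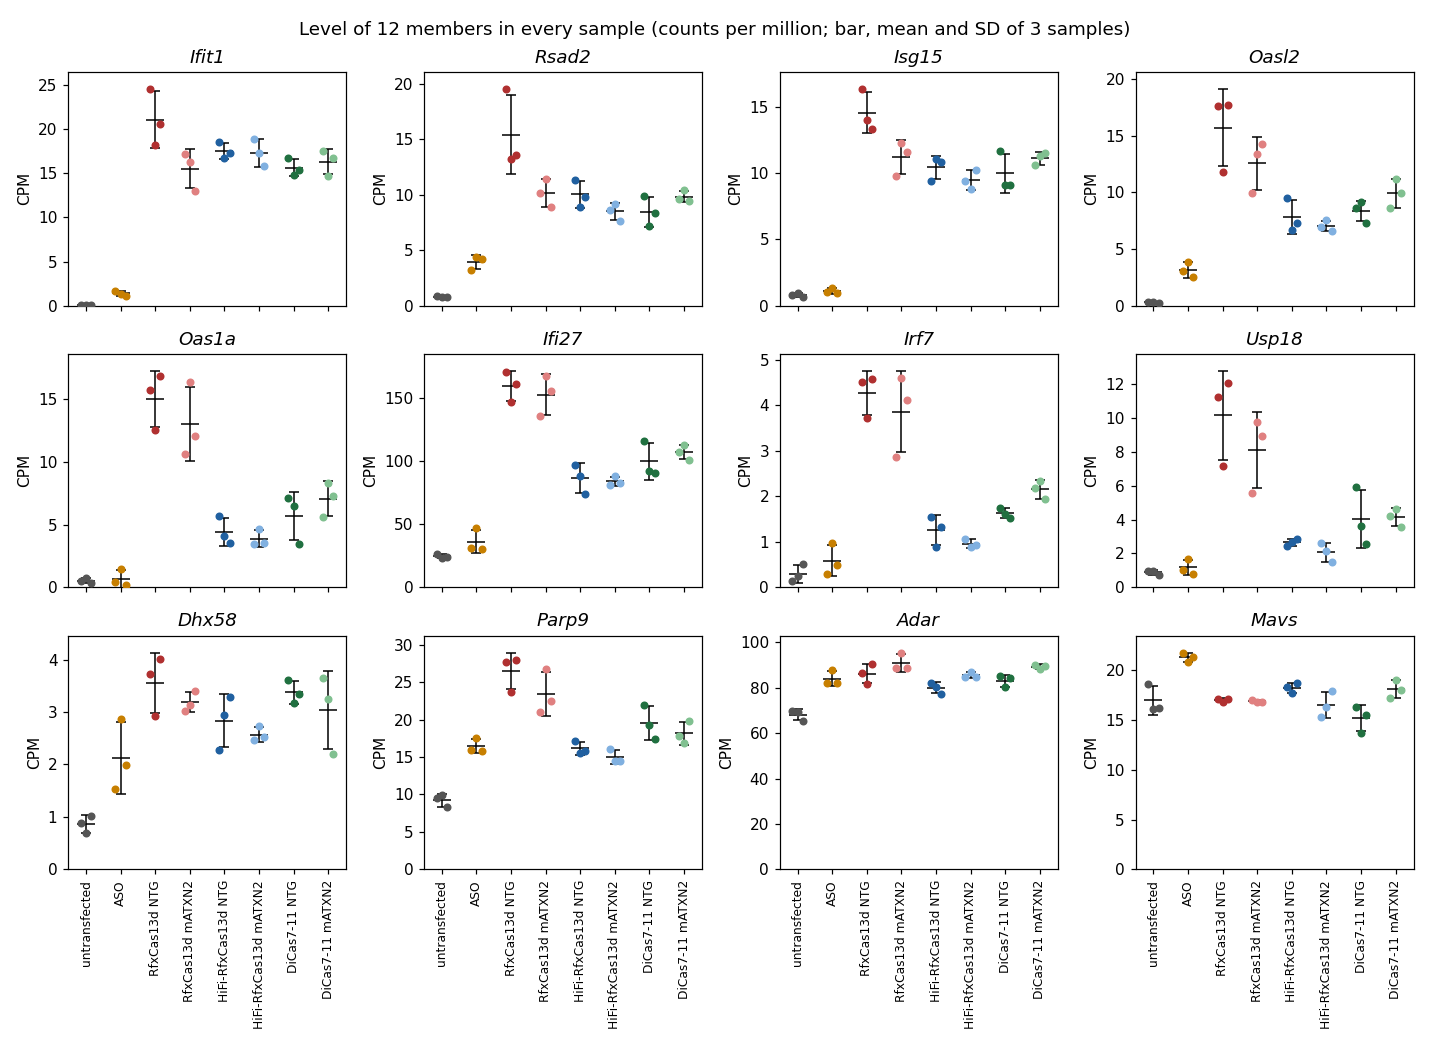
Level of 12 members in each of the 24 samples, in CPM on linear axes that start at 0, by group, with coloured points for samples and black bars for the mean and SD of 3 samples, cut at 0. Ifit1 went from 0.0861 ± 0.0279 CPM (mean ± SD) in untransfected cells to 21.1 ± 3.22 CPM with RfxCas13d NTG, while Mavs showed no such step between untransfected and transfected cells.

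Left out in turn, each of the 6 libraries gave 27 to 29 members called for RfxCas13d, 26 to 29 for HiFi-RfxCas13d and 24 to 28 for DiCas7-11. Without DiCas7-11 NTG replicates 1, 2 and 3 the DiCas7-11 count was 25, 27 and 27. Besides Cgas and B2m, the calls lost were those of Ifit2 in HiFi-RfxCas13d without NTG replicate 3 or untransfected replicate 1, of Ifit2 in DiCas7-11 without NTG replicate 1 or untransfected replicate 1 or 2, and of Samhd1 in DiCas7-11 without NTG replicate 3 or untransfected replicate 1 or 3.

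Most of the list was also higher under the ASO, in the comparison with the most changed genes of all. Against untransfected cells, 21 of 36 members were higher and 1 was lower, in a comparison where 21.0% of all genes tested were higher and 21.7% lower. The members' median log2 fold change was 0.49, against -0.0021 over all genes. Of the 28 members that passed in every untransfected library 18 were higher, and their median was 0.42. Of the 21, 19 were also called in all 3 NTG arms, which share the untransfected samples with this comparison. The ASO libraries were also the deepest, and the part of depth was not tested. Ifit1 was at 1.38 ± 0.289 CPM (mean ± SD, n = 3) and, by counts scaled for library size, 15.6 times the untransfected level (counting interval 5.89 to 58.3). Oasl2 was 10.6 times (adjusted p = 3.29e-08), Rsad2 4.7 times (adjusted p = 5.46e-08), Xaf1 3.69 times (adjusted p = 0.000425) and Parp14 3.45 times (adjusted p = 2.58e-07) the untransfected level. Among the sensors Dhx58 was 2.48 times (adjusted p = 0.000269) and Cgas 1.37 times the untransfected level (adjusted p = 0.00811, with overlapping groups), and the call of Cgas was lost without untransfected replicate 1 or 2.

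Mavs and Sting1 were called under the ASO and in no NTG arm, though the HiFi-RfxCas13d NTG samples of Sting1 also lay below the untransfected ones. Mavs rose by 1.25 times (log2 fold change 0.33 ± 0.069 SE, adjusted p = 0.000307), with all 3 ASO samples above all untransfected ones, and Sting1 was the member that fell (log2 fold change -0.36 ± 0.077 SE, adjusted p = 0.000438). Whether these differ from the NTG arms was not tested. In the other direction, 8 members called in all NTG arms did not pass edgeR's test under the ASO with all samples: Ifit2, Isg15, Irf7, Oas1a, Usp18, Ifih1, Ddx60 and B2m. Their log2 fold changes under the ASO, where a fold can be given, were -0.10 for Ifit2, 0.47 for Isg15, 1.10 for Irf7, 0.36 for Oas1a, 0.41 for Usp18 and 0.038 for B2m. Irf7 (adjusted p = 0.0574) passed without untransfected replicate 3 or ASO replicate 1, at log2 fold changes of 1.62 and 1.41, and with library size only. Isg15 was called by limma-trend under both adjustments, and B2m with the coding length correction. The rise of Eif2ak2 (1.11 times, adjusted p = 0.0373) was lost without untransfected replicate 2 or 3 or ASO replicate 1 or 2. It was also lost with limma-trend adjusted over 10 comparisons. By class the ASO group was higher for 11 of 16 effectors, 1 of 5 transcription factors (Irf9), 3 of 5 sensors and adapters, 5 of 6 regulators and 1 of 4 antigen presentation genes (Psmb8, 1.49 times), beside 21.0% of all genes. The shares of the transcription factors and the antigen presentation genes are near that background.

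**Figure D2:**
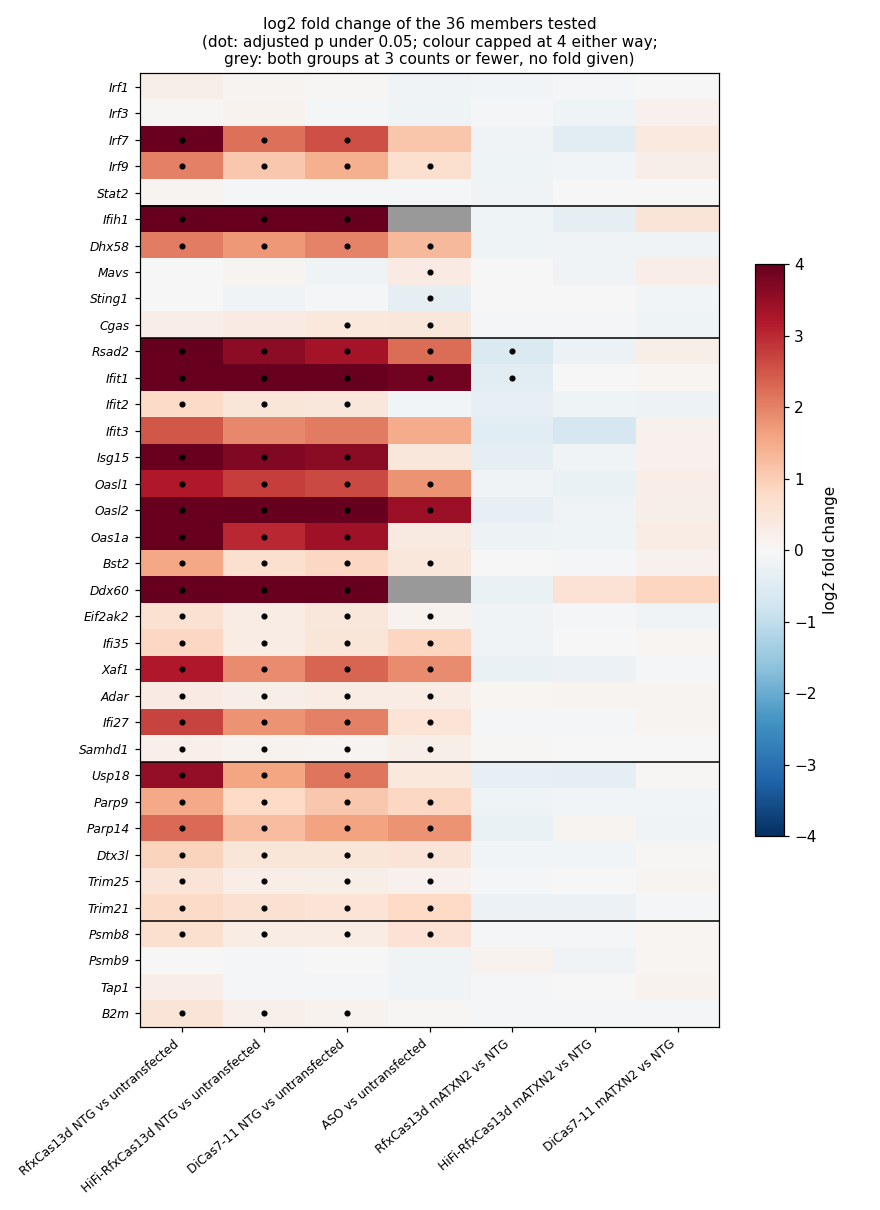
Heat map of the log2 fold change of the 36 members tested (rows, grouped by role) in 7 comparisons (columns), with red for higher and blue for lower, a colour scale that ends at 4 either way, a dot where the adjusted p was under 0.05 and grey where both groups were at the floor. The 3 columns of NTG against untransfected carry 27, 27 and 28 dots, the ASO column 22 and the mATXN2 columns 2, 0 and 0. Fitted values of Ifih1 and Ddx60 in the NTG columns depend on the prior count, since untransfected cells had no counts.

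The 3 NTG arms did not reach the same levels. Against RfxCas13d NTG, 18 of 36 members were lower and none higher in HiFi-RfxCas13d NTG, where 0.504% of all genes tested were lower and 0.115% higher. In DiCas7-11 NTG 17 were lower and none higher, where 2.29% of all genes were lower and 1.10% higher. Members' median log2 fold changes were -0.34 and -0.38, against 0.0013 and 0.0018 over all genes. Over the members that passed in every untransfected library, 14 and 13 of 28 were lower. These comparisons share the RfxCas13d NTG samples, and the arms differ in their plasmids, so effector, plasmid preparation and uptake cannot be told apart.

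Usp18, Oas1a and Irf7 differed most. Usp18 was at 10.1 ± 2.61 CPM with RfxCas13d NTG against 2.67 ± 0.21 with HiFi-RfxCas13d NTG and 4.03 ± 1.71 with DiCas7-11 NTG (mean ± SD, n = 3), log2 fold changes of -1.92 ± 0.25 SE (adjusted p = 2.89e-05) and -1.35 ± 0.24 SE (adjusted p = 0.00085). Oas1a was at 15 ± 2.22 CPM against 4.42 ± 1.13 and 5.68 ± 1.94 CPM, log2 fold changes of -1.77 (adjusted p = 8.79e-05) and -1.42 (adjusted p = 0.00062). Irf7 was at 4.27 ± 0.478 CPM against 1.26 ± 0.332 and 1.63 ± 0.114 CPM, log2 fold changes of -1.76 (adjusted p = 0.000271) and -1.38 (adjusted p = 0.00163). For these genes no sample of HiFi-RfxCas13d NTG or DiCas7-11 NTG reached the lowest RfxCas13d NTG sample. By contrast Adar (-0.11 and -0.054), Samhd1 (-0.036 and -0.069), Dhx58 (-0.32 and -0.088) and Cgas (0.048 and 0.14) did not pass in either comparison. Leaving out each library in turn gave 13 to 17 and 12 to 18 members. Calls were lost for Rsad2, Isg15, Dtx3l and Xaf1 without RfxCas13d NTG replicate 1 or HiFi-RfxCas13d NTG replicate 2, and with them Parp14 without HiFi-RfxCas13d NTG replicate 3, which left 13. In DiCas7-11 the fewest, 12, remained without NTG replicate 3, where Ifit1, Irf9, Dtx3l, Oasl1 and Ifi35 were lost. DiCas7-11 NTG against HiFi-RfxCas13d NTG called 0 members with edgeR, 0 with limma-trend and 0 with DESeq2, which gave no adjusted p for 29 of them (5 members at an unadjusted p under 0.05), in a comparison that called 0.705% of all genes in either direction.

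**Figure D3:**
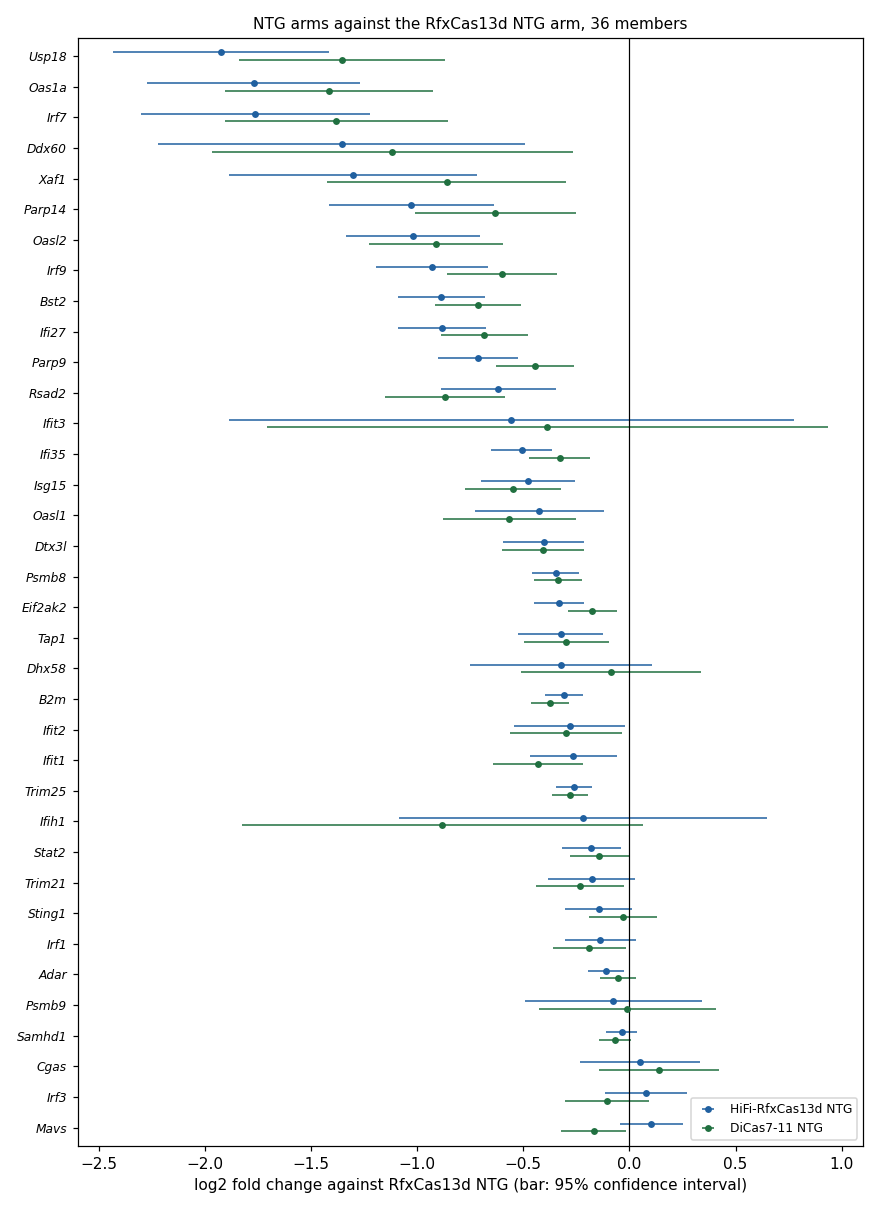
Log2 fold change of each of the 36 members (rows, ordered by the HiFi-RfxCas13d value) in HiFi-RfxCas13d NTG (blue) and DiCas7-11 NTG (green) against RfxCas13d NTG, with 95% confidence intervals as bars. Most points lie left of 0, from -1.92 for Usp18 to 0.10 for Mavs in HiFi-RfxCas13d.

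By edgeR's test with all samples, no member was called higher with the ataxin-2 crRNA within any effector. With mATXN2 against NTG, RfxCas13d had no member higher and 2 lower, where 0.914% of all genes tested were higher and 0.475% lower, and Isg15 was called as well when every nonzero gene was kept. HiFi-RfxCas13d had none in either direction (0.281% of all genes higher and 0.0144% lower), and DiCas7-11 had none (0.554% higher and 0.388% lower). With edgeR, 9, 2 and 4 members had an unadjusted p under 0.05. In HiFi-RfxCas13d limma-trend also called 0 and DESeq2 0, with no adjusted p for 30 members, and in DiCas7-11 limma-trend called 0, or 1 (Mavs) when adjusted over 10 comparisons, and DESeq2 0, with none for 30. The members' median log2 fold change was -0.14 with RfxCas13d, -0.10 with HiFi-RfxCas13d and 0.083 with DiCas7-11, against 0.0016, -0.0010 and -0.0010 over all genes, and 32, 30 and 10 of 36 members were below 0. The comparisons of NTG with untransfected cells used the same NTG samples.

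Rsad2 and Ifit1 were the members that fell with RfxCas13d. Rsad2 was -0.59 ± 0.13 SE on the log2 scale (adjusted p = 0.0204) and Ifit1 -0.43 ± 0.10 SE (adjusted p = 0.0257), and for both all 3 mATXN2 samples lay below all 3 NTG samples. Both stayed far above untransfected cells, at 10.1 ± 1.26 against 0.813 ± 0.0672 CPM for Rsad2 and 15.5 ± 2.21 against 0.0861 ± 0.0279 CPM for Ifit1 (mean ± SD, n = 3). Neither passed without RfxCas13d NTG replicate 1 (log2 fold changes of -0.40 for Rsad2 and -0.32 for Ifit1) or without mATXN2 replicate 3 (-0.51 and -0.33). Rsad2 was also lost without mATXN2 replicate 1 (-0.59, adjusted p = 0.0575), and Ifit1 without NTG replicate 3 (-0.46, adjusted p = 0.0518) or mATXN2 replicate 2 (-0.48, adjusted p = 0.0589). In the other effectors the log2 fold changes were -0.24 and 0.23 for Rsad2 and -0.022 and 0.071 for Ifit1.

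The remaining members with the largest fitted changes in their classes did not pass. Ddx60 had 0.84 (95% interval -0.022 to 1.71), Ifih1 0.50 (-0.47 to 1.48) and Tap1 0.14 (-0.060 to 0.35) with DiCas7-11, and Irf7 -0.41 (-1.06 to 0.25) and Usp18 -0.39 (-1.02 to 0.24) with HiFi-RfxCas13d. Of these, Ddx60 and Ifih1 are read from few counts, and Ifih1 turned to -0.11 without DiCas7-11 mATXN2 replicate 3. Mavs with DiCas7-11 (log2 fold change 0.26, adjusted p = 0.0895) passed when NTG replicate 1 was left out. For the mean of the 3 effectors, 1 member was called higher, in a comparison where 2.95% of all genes were higher and 2.24% lower. It was Adar, at 0.092 ± 0.024 SE on the log2 scale (adjusted p = 0.0182), 1.07 times the NTG level. Eif2ak2 (log2 fold change -0.11) was called too under 5 of 9 alternative settings. The Adar call was lost without RfxCas13d NTG replicate 2 (log2 fold change 0.079, adjusted p = 0.0509), RfxCas13d mATXN2 replicate 2 (0.078, adjusted p = 0.0571), HiFi-RfxCas13d NTG replicate 3 (0.083, adjusted p = 0.0513) or DiCas7-11 NTG replicate 2 (0.081, adjusted p = 0.0549).

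**Figure D4:**
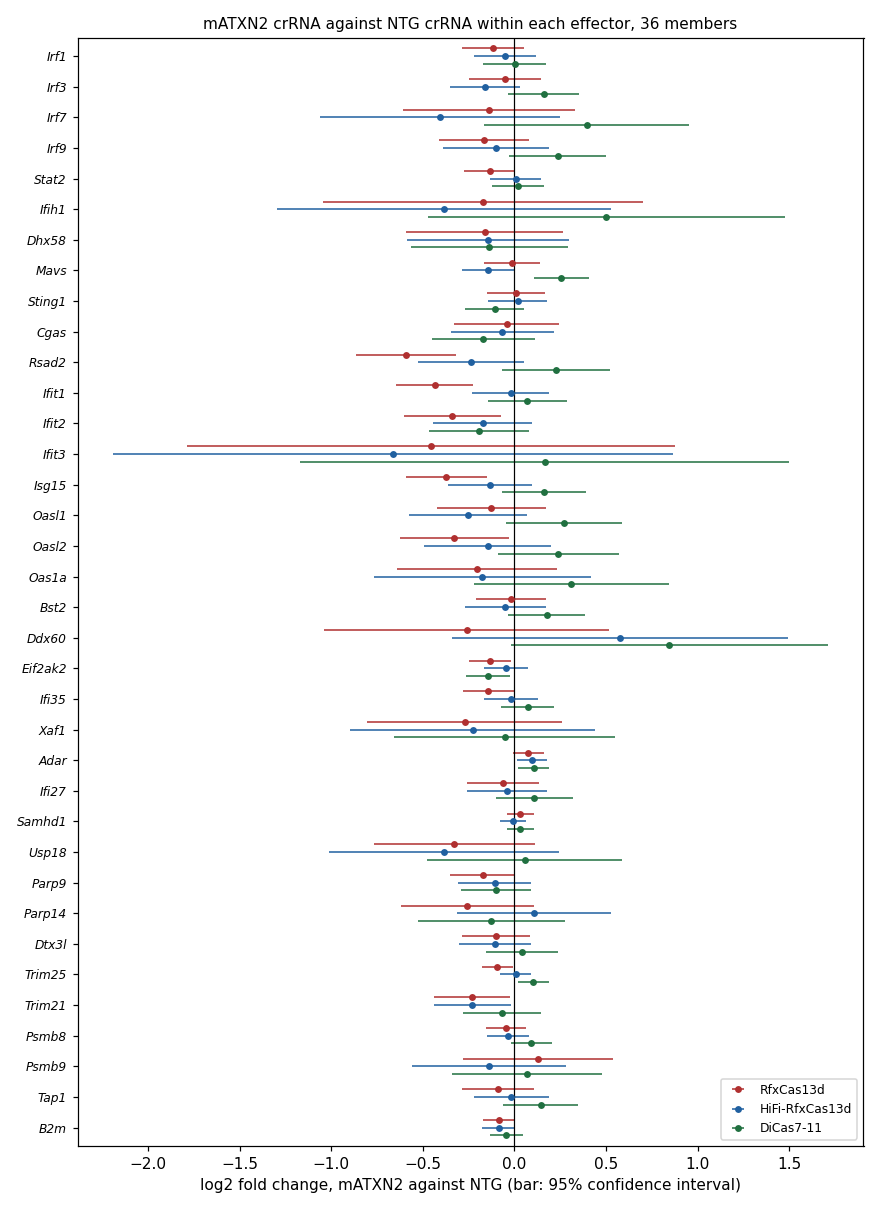
Log2 fold change of each of the 36 members (rows, in order of role) for mATXN2 against NTG within RfxCas13d (red), HiFi-RfxCas13d (blue) and DiCas7-11 (green), with 95% confidence intervals as bars. Most intervals span 0, and Rsad2 (-0.59) and Ifit1 (-0.43) with RfxCas13d are the members called.

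The response to mATXN2 was compared between effectors by an interaction. None of the 36 members passed with edgeR, limma-trend or DESeq2 for HiFi-RfxCas13d against RfxCas13d, DiCas7-11 against RfxCas13d or DiCas7-11 against HiFi-RfxCas13d, and in each 0% of all genes tested passed with edgeR. At an unadjusted p under 0.05 there were 1, 8 and 4 members, among 855, 1084 and 1028 of all genes. DESeq2 gave no adjusted p for 31 members in DiCas7-11 against RfxCas13d. Rsad2 differed by 0.82 between DiCas7-11 and RfxCas13d (95% interval 0.41 to 1.22, adjusted p = 0.333) and Ifit1 by 0.51 (0.20 to 0.81, adjusted p = 0.426). Both passed after adjustment when every gene with a nonzero count was kept, and under none of the other alternatives run.

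The rest of the pathway was read from lists of genes grouped by function. All 10 interferon genes listed (Ifnb1, Ifna1, Ifna2, Ifna4, Ifna5, Ifne, Ifnk, Ifnl2, Ifnl3 and Ifng) were at 0 counts in all 24 libraries. Of the 5 receptor genes tested, none was higher and 1 lower in each NTG arm and under the ASO. Of 48 other interferon-stimulated genes tested, 34, 24 and 29 were higher in the NTG arms of RfxCas13d, HiFi-RfxCas13d and DiCas7-11 (0, 2 and 1 lower), and 24 were higher and 4 lower under the ASO. Some of them, such as Gbp3, Oas2 and Ifi44, had no counts in untransfected cells and passed the filter only through other groups. Counts for the gene lists were not repeated over the genes that passed in every untransfected library. The shares of all genes to set these and the following counts against untransfected cells beside are 5.60%, 10.3% and 11.1% higher in the 3 arms and 21.0% higher and 21.7% lower under the ASO. Against RfxCas13d NTG, 12 of the 48 were lower in HiFi-RfxCas13d NTG and 13 in DiCas7-11 NTG, and none higher. In these 2 comparisons 0.504% and 2.29% of all genes tested were lower, and 0.115% and 1.10% higher. Gbp3, a guanylate-binding protein, had no counts in untransfected cells, 0.504, 0.596 and 0.183 CPM with the ASO and 2.8, 2.07 and 3.41 CPM with RfxCas13d, 1.33, 1.45 and 1.26 with HiFi-RfxCas13d and 2.99, 1.55 and 1.04 with DiCas7-11 in the NTG arms. Oas2 had none in untransfected cells and 2.1, 1.05 and 3.39 CPM with RfxCas13d, 0.30, 0.123 and 0.17 with HiFi-RfxCas13d and 0.715, 0.717 and 0.206 with DiCas7-11 in the NTG arms, and Ifi44 none and 0.525, 0.317 and 0.871 CPM with RfxCas13d, 0.066, 0.289 and 0.256 with HiFi-RfxCas13d and 0.508, 0.573 and 0.441 with DiCas7-11. The chemokine Cxcl10 was at 0.645, 0.599 and 0.879 CPM untransfected, 2.21, 2.88 and 1.87 CPM with the ASO and 9.01, 7.33 and 7.54 CPM with RfxCas13d, 4.61, 6.13 and 6.27 with HiFi-RfxCas13d and 7.46, 5.5 and 6.59 with DiCas7-11 with NTG. Further genes with the largest fitted rises in the NTG arms were Rtp4, Oas1g, Trim30a and Ccl5. Rtp4 was at 0, 0 and 0.0409 CPM untransfected and, with NTG, 1.94, 1.4 and 1.45 CPM with RfxCas13d, 0.595, 0.257 and 0.352 with HiFi-RfxCas13d and 0.922, 0.626 and 0.676 with DiCas7-11. Oas1g was at 0.174, 0.138 and 0.0901 CPM untransfected and, with NTG, 3.42, 3.45 and 3.91 CPM with RfxCas13d, 1.17, 2.04 and 0.893 with HiFi-RfxCas13d and 1.86, 1.32 and 1.61 with DiCas7-11. Trim30a was at 0, 0.0591 and 0 CPM untransfected and, with NTG, 0.699, 0.776 and 0.765 CPM with RfxCas13d, 1.04, 0.569 and 0.375 with HiFi-RfxCas13d and 0.734, 1.06 and 0.564 with DiCas7-11. Ccl5 was at 0, 0.0603 and 0 CPM untransfected and, with NTG, 0.486, 1.07 and 0.545 CPM with RfxCas13d, 0.522, 0.338 and 0.181 with HiFi-RfxCas13d and 0.516, 0.398 and 0.56 with DiCas7-11. For Rtp4 and Oas1g every RfxCas13d NTG sample lay above every NTG sample of the other effectors. Under the ASO they were Gbp7 (0.0633, 0.0587 and 0.078 CPM untransfected and 0.811, 1.57 and 0.72 CPM with the ASO), Uba7 (0.129, 0.12 and 0.401 CPM untransfected and 1.13, 0.874 and 0.804 CPM with the ASO) and Oas1b (1.03, 1.09 and 0.40 CPM untransfected and 2.04, 2.73 and 1.68 CPM with the ASO).

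Among 30 other sensors and adapters tested, 5, 6 and 11 were higher in the NTG arms (0, 0 and 1 lower) and 13 higher under the ASO, above the shares of all genes higher in each. Ddx58, which encodes RIG-I, was at 7.64, 6.73 and 5.78 CPM untransfected, 11.2, 14.2 and 10.8 CPM with the ASO and 32.1, 29.3 and 32.4 CPM with RfxCas13d, 19.4, 15.1 and 15.1 with HiFi-RfxCas13d and 21.1, 20.5 and 19.6 with DiCas7-11 with NTG, rises of 4.62, 2.44 and 3.01 times in the arms. Of 15 genes of MHC class I presentation, 9, 6 and 5 were higher in the arms and none lower, and 7 were higher and 5 lower under the ASO. Of 16 NF-kB and inflammatory genes, 2, 2 and 1 were higher (0, 1 and 0 lower), and 3 were higher and 3 lower under the ASO, with the ASO counts near the background both ways and the DiCas7-11 count below it. With mATXN2 against NTG none of these lists had a called gene within any effector. For the mean of the effectors Mx1 (-0.48), Herc6 (-0.16) and Herc3 (-0.12) of the interferon-stimulated list and Canx (-0.058) of the presentation list were lower on the log2 scale. These are 3 of 48 and 1 of 15 genes, in a comparison where 2.24% of all genes were lower.

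Across the 24 samples the genes whose log2 CPM followed Rsad2 most closely were Oasl2 (Pearson's r = 0.983), Ifit1 (0.972), Oasl1 (0.965), Gbp3 (0.964) and Cxcl10 (0.964), of which Oasl2, Ifit1 and Oasl1 are members. This is a description over samples that share groups and treatment, with no test.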

How the data were processed

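RNA was measured in 24 Neuro2A samples (8 groups of 3, described as independent biological replicates). The authors quantified stranded mRNA reads with Salmon 1.5.2 against the GRCm39 transcriptome and deposited gene-level expected counts, which tximport had adjusted for transcript length but not for depth. The deposited table was complete, and a column of it marks the 12874 genes the authors kept, which do not include Ifit3, Ifit3b and Zbp1. Transcript lengths and promoters came from another build, GRCm38.

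Expected counts were rounded and tested with edgeR 4.0.16 in R 4.3.3 by the quasi-likelihood test, with TMM normalisation, genes at 0.5 CPM or more in at least 3 samples (13901), 1 fit to all samples and Benjamini-Hochberg adjustment within each of 15 comparisons at 0.05. CPM values use unrounded counts over TMM-scaled library sizes, and ± gives the SD of 3 samples unless SE is named. Intervals are at 95%. Totals of 12665725 to 22504999 set the precision, and 3 counts over the untransfected group was the floor for folds. On simulated data for RfxCas13d NTG against untransfected cells with 13901 genes, 77 of 100 genes changed by 0.5 and 81 of 100 changed by 1 on the log2 scale were called. The changed genes were drawn at random and simulated from their mean level over all samples. The recovery therefore does not stand for members barely read in untransfected cells. The run was set to stop at a low recovery of the larger change.

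Members described sample by sample were those called in any comparison. The member of each role class with the largest absolute change in each family of comparisons was named too, and so were up to 5 called genes of the other pathway lists per comparison and the 5 genes most correlated with Rsad2. The members and all lists were chosen with earlier results of these data known. The list of JAK-STAT genes is not reported here. Alternatives were RLE or no normalisation, other filters, limma-trend (limma 3.58.1, prior count 3, also adjusted over 10 comparisons as the study describes), DESeq2 1.42.0, only the groups compared, a replicate block, each library left out and, added after the data were seen, a correction for coding length. Where DESeq2 gives no adjusted p, none is counted. Figures were drawn with matplotlib 3.10.9.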

Additional observations from a re-analysis of the deposited data

Results flagged for a closer look

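The rise from untransfected cells differed between effectors by a direct test of the NTG arms, since both share the untransfected samples and the difference of the rises is the difference of the arms. In HiFi-RfxCas13d NTG against RfxCas13d NTG, 18 members differed by edgeR's adjusted p, all lower, with log2 fold changes for Usp18 (-1.92), Oas1a (-1.77), Irf7 (-1.76), Xaf1 (-1.30), Parp14 (-1.03), Oasl2 (-1.02), Irf9 (-0.93), Bst2 (-0.89), Ifi27 (-0.88), Parp9 (-0.71), Rsad2 (-0.62), Ifi35 (-0.51), Isg15 (-0.48), Dtx3l (-0.40), Psmb8 (-0.35), Eif2ak2 (-0.33), B2m (-0.31) and Trim25 (-0.26). In DiCas7-11 NTG against RfxCas13d NTG, 17 members differed, all lower, for Oas1a (-1.42), Irf7 (-1.38), Usp18 (-1.35), Oasl2 (-0.91), Rsad2 (-0.87), Bst2 (-0.71), Ifi27 (-0.68), Irf9 (-0.60), Oasl1 (-0.57), Isg15 (-0.55), Parp9 (-0.44), Ifit1 (-0.43), Dtx3l (-0.41), B2m (-0.37), Psmb8 (-0.34), Ifi35 (-0.33) and Trim25 (-0.28). Of all genes tested, 0.504% were lower and 0.115% higher in the comparison of HiFi-RfxCas13d, and 2.29% and 1.10% in that of DiCas7-11. Limma-trend did not call Rsad2, Isg15, Dtx3l and Xaf1 with HiFi-RfxCas13d, nor Ifit1 and Oasl1 with DiCas7-11. DESeq2 did not call Xaf1 with HiFi-RfxCas13d. The level of effector transcript was not analysed here, and the part of plasmid preparation and uptake cannot be told apart from that of the effector.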

How the results depend on the processing

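Of the alternatives run, those on the NTG arms against untransfected cells gave 25 to 30 members for RfxCas13d, 25 to 28 for HiFi-RfxCas13d, 23 to 28 for DiCas7-11 and 27 to 30 for the mean of the arms when no library was left out, against 27, 27, 28 and 29. The ASO against untransfected cells gave 22 to 23, and 20 to 23 without a library, against 22. The lowest DiCas7-11 count came from fitting only the groups compared, where B2m, Cgas and Samhd1 lost their calls and Ddx60 and Ifih1 no longer passed the filter. DESeq2 gave no adjusted p for Ddx60 and Ifih1 in any single arm. Against RfxCas13d NTG, 14 to 18 members were called in HiFi-RfxCas13d NTG and 15 to 20 in DiCas7-11 NTG, where DESeq2 gave none for Usp18 and Irf7.

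Small counts moved most. For RfxCas13d mATXN2 against NTG, limma-trend within the comparison called 1 (Ifit1 had an adjusted p of 0.0887), leaving out a library gave 0 to 2, and DESeq2 gave no adjusted p for Rsad2 or Ifit1 and hence no count. For DiCas7-11, limma-trend adjusted over 10 comparisons called 1 and leaving out a library 0 to 1. For the mean of the effectors, RLE factors, the 1 CPM filter, the replicate block, only the groups compared, DESeq2 and the coding length correction each called 2, every gene with a nonzero count called 4, and leaving out a library gave 0 to 2. DiCas7-11 NTG against HiFi-RfxCas13d NTG had 1 with every nonzero gene (Ifi27) and 0 to 1 without a library (Mavs, without DiCas7-11 NTG replicate 1). The response of DiCas7-11 against RfxCas13d had 2 with every nonzero gene (Ifit1 and Rsad2). Ifih1 in DiCas7-11 mATXN2, 0.50 and not called, ranged from -0.11 to 0.88 without a library. The causes were not tested. Samples with the same replicate number correlated by -0.087 to 0.19, with no comparison having all pairs over 0.1, so the numbers were not taken as pairs, and the replicate block moved a count by over 1.5 times only for the mean of the effectors, from 1 to 2.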
